A study of Mus musculus with 16 samples.

Results

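The 9 genes described here are the inhibitory receptors and exhaustion genes of T cells that were matched by symbol to the count table: Pdcd1, Ctla4, Lag3, Havcr2, Tigit, Btla, Cd160, Tox and Entpd1. All 9 were found among the 53465 genes of the table. They were followed in 16 MC38 tumors, and also relative to the T cell gene Cd3e in the same tumor. MC38 is a mouse colon carcinoma line of high microsatellite instability, so every tumor derives from the same cell line. The cells were injected under the skin of the right flank of female C57BL/6 mice aged 6 to 8 weeks. Mice entered the study when the tumor measured 150 to 250 mm3 on day 16, received 200 µg of control IgG or of aPD-1 antibody on days 16 and 20, and gave the tumor on day 21. The 3 groups were 8 IgG controls, 6 aPD-1 non-responders (NR) and 2 aPD-1 responders (R), each tumor from a different mouse. Poly(A) RNA came from 2 sections of 100 microns per fresh-frozen tumor, so all cell types of the section were measured together.

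The responder status in the labels follows the study's staining of CD8 T cells in the tumors. The groups were thus defined by T cell content, and a difference in T cell genes between R and NR is not independent of how they were named. In such bulk RNA, more cells of a type and more RNA per cell cannot be told apart. Total counts per tumor ran from 26603449 to 39948866. The share of mitochondrial counts was 5.74% to 7.6% in 3 tumors, IgG 1, NR 9 and NR 14, and 2.52% to 3.25% in the other 13. The label names the cell type as colorectal carcinoma. Of 4 epithelial markers, Krt8, Krt18 and Epcam were near 0 in the IgG and NR tumors. Krt18 had 0 to 1.8 CPM in IgG and 0 to 1.54 CPM in NR, against 11.3 and 33.3 CPM in the R tumors. The remaining marker, Cdh1, was present in all groups. Its level was 3.91 to 5.73 CPM in IgG, 3.75 to 8.12 CPM in NR, and 8.55 and 9.78 CPM in the R tumors.

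Checkpoint receptors are membrane proteins that dampen T cell activation after antigen contact. They recruit phosphatases to the receptor complex, compete with costimulatory receptors for shared ligands, or act through ligands on antigen-presenting and tumor cells. Activated T cells express several of them for a time, and T cells exposed to antigen for long periods keep many of them together, under transcription factors such as Tox. PD-1, the product of Pdcd1, is the protein that the antibody given here binds.

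By the GENCODE annotation of GRCm38, the genes of PD-1, CTLA-4, LAG-3 and TIM-3 are Pdcd1 at chr1:94038305-94052553 (minus strand), Ctla4 at chr1:60887000-60915832 (plus strand), Lag3 at chr6:124904361-124911705 (minus strand) and Havcr2 at chr11:46454935-46481255 (plus strand). The others are Tigit at chr16:43648867-43664146 (minus strand), Btla at chr16:45224315-45257670 (plus strand), Cd160 at chr3:96798763-96829351 (minus strand), Tox at chr4:6686353-6991557 (minus strand) and Entpd1 at chr19:40612366-40741602 (plus strand). Counts cover the exons of each whole gene.

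Promoter windows from RefSeq on GRCm38.p6 were available for 7 of the 9 genes, as 9 windows of 300 bases. Those of Pdcd1 and Btla are shown up to the first annotated transcript start because relative to Cd3e the first was lower and the second higher in the R tumors than in every NR tumor. Both are written 5′ to 3′ on the strand of the gene, with matches to the core of NFAT sites (GGAAA, on either strand) in capitals. NFAT is a factor that T cell receptor signals activate.
Pdcd1, chr1:94052554-94052803, minus strand: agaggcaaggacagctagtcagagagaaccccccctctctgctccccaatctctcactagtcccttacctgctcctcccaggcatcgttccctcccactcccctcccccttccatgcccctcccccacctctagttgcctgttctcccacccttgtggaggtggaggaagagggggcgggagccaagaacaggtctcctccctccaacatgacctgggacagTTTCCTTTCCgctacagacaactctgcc
Btla, chr16:45224087-45224314, plus strand: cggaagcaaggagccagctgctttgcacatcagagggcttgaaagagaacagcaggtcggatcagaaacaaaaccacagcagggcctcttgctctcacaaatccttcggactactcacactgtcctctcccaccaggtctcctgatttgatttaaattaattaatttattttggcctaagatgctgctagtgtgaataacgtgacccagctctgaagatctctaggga
The Pdcd1 window held 2 matches that adjoin each other and the Btla window held 0, in a search where 61.3% of 32851 promoter windows held at least 1. An AP-1 site (TGANTCA), present in 7.81% of all windows, was found in neither of these windows and in 1 window of the 9, that of Havcr2.

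The 9 genes differed widely in level. Levels in CPM, counts scaled to each library, were divided by exonic length to compare genes with each other. In the IgG tumors the highest medians were those of Havcr2 at 7.28 CPM per kb and Entpd1 at 6.48 CPM per kb. Their ranges overlapped, with Havcr2 above Entpd1 in 5 of 8 tumors. Both are also known from myeloid cells, and Entpd1 from endothelium. Pdcd1 came next at 1.04 CPM per kb, and Entpd1 was above it in 8 of 8 tumors with no overlap. From Pdcd1 down through Ctla4 (0.859 CPM per kb), Lag3 (0.758 CPM per kb), Tigit (0.503 CPM per kb), Btla (0.403 CPM per kb) and Cd160 (0.159 CPM per kb), each gene's range overlapped that of its neighbour. Tox stood apart at the bottom with 0.0249 CPM per kb. In the NR tumors the order was the same except that Entpd1 (8.39 CPM per kb) and Havcr2 (8.26 CPM per kb) changed places, and again their ranges overlapped. In both R tumors Btla came first, at 17.7 and 44.0 CPM per kb, and Entpd1 second, at 13.1 and 13.9 CPM per kb.

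**Figure D1:**
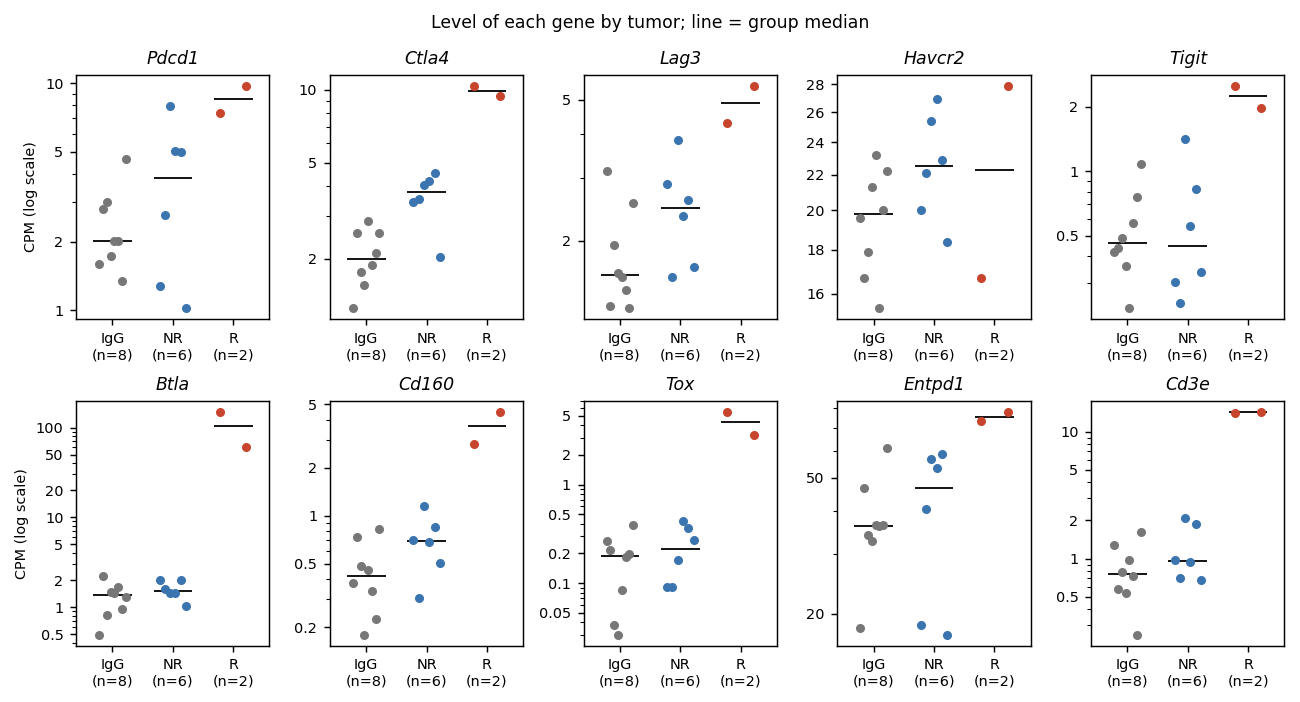
Level of each of the 9 genes and of Cd3e in CPM, counts scaled to each library (log axis), in IgG control, NR and R tumors, with 1 point per tumor and a line at the group median. Both R tumors lie above all NR and IgG tumors for Ctla4, Lag3, Tigit, Btla, Cd160, Tox and Entpd1. The share of all genes that do so was not counted, so this does not set these genes apart from other genes. Tox passed the filter on low counts only through the R tumors. For Havcr2 the R tumors lie at 16.7 and 27.9 CPM, on either side of the NR median of 22.5 CPM.

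The comparison of R with NR tumors asked which of these genes differed with the response to aPD-1. Ctla4, Tigit, Btla, Cd160 and Tox rose in R tumors, 5 of the 9 genes, at an adjusted p under 0.05 and a log2 fold change over 1 in edgeR's quasi-likelihood test. Of all 18251 genes tested, 12.5% were called higher and 0.663% lower, and none of the 9 was called lower. The median log2 fold change of the 9 genes was 1.45, against 0.02 over all genes. Without the tumor R 15 the number called was 3, as Ctla4 and Tigit no longer passed. Tox passed the filter on low counts only through the R tumors, so its call was bound to be a difference. Of the 8 other genes 4 were called, with a median of 1.3.

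Pdcd1, the receptor that aPD-1 blocks, varied widely among non-responders. It lay between 1.35 and 4.63 CPM in the IgG tumors, with a median of 2.02 CPM. The NR tumors ran from 1.02 to 7.92 CPM with a median of 3.81 CPM, and the R tumors stood at 7.36 and 9.76 CPM. One R tumor was below the highest NR tumor, NR 11, so the groups overlapped. The log2 fold change between R and NR was 1.16 ± 0.57 (SE), with an adjusted p of 0.176 in edgeR, which did not pass. A normal approximation from the SE gave a 95% interval of 0.05 to 2.28, which covers both a small difference and a large one. The unadjusted p of the edgeR test was 0.057, so the absence of a difference is not excluded either. Against IgG, where R and control tumors did not overlap, Pdcd1 rose by a log2 fold change of 1.84 ± 0.53 (SE; edgeR adjusted p = 0.0175), a call lost without R 15 (adjusted p = 0.106) or R 16 (0.138).

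Ctla4, which competes with Cd28 for the ligands Cd80 and Cd86, separated the R tumors clearly. The IgG tumors held 1.25 to 2.87 CPM, with a median of 2.0 CPM. The NR tumors held 2.03 to 4.55 CPM (median 3.78 CPM) and the R tumors 9.39 and 10.4 CPM. Both R tumors were above every NR tumor, and 5 of 6 NR tumors were above every IgG tumor. Ctla4 rose in R against NR by a log2 fold change of 1.45 ± 0.29 (SE; edgeR adjusted p = 0.00158), or 2.73-fold. Foxp3, the factor that defines regulatory T cells, many of which carry Ctla4, rose 3.8-fold in the same comparison.

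Lag3, which binds MHC class II molecules, was measured at 1.29 to 3.15 CPM in the IgG tumors (median 1.6 CPM). The values were 1.58 to 3.86 CPM in NR tumors (median 2.47 CPM) and 4.29 and 5.48 CPM in R tumors. Both R tumors were above all 14 others, yet the log2 fold change of 0.97 ± 0.36 (SE) against NR had an edgeR adjusted p of 0.0676 and did not pass. Against IgG, Lag3 rose by 1.39 ± 0.33 (SE; edgeR adjusted p = 0.00537), a call lost without R 15 (adjusted p = 0.0505) or R 16 (0.0905).

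Havcr2 encodes TIM-3, a receptor of exhausted T cells that macrophages and dendritic cells carry as well. Its level was 15.4 to 23.2 CPM in IgG tumors (median 19.8 CPM) and 18.4 to 26.9 CPM in NR tumors (median 22.5 CPM). The R tumors held 16.7 and 27.9 CPM, the lower below every NR tumor and the higher above every one. The log2 fold change between R and NR was -0.02 ± 0.19 (SE; edgeR adjusted p = 0.963), with a 95% interval of -0.4 to 0.36. The summed level of 8 macrophage and monocyte genes was 958 to 1430 CPM in NR and 1340 and 1500 CPM in R tumors, with 1 of the 8 called higher. Its part in the level of Havcr2 was not tested.

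Tigit, which competes with Cd226 for the ligand Pvr, was low in most tumors. It reached 0.229 to 1.08 CPM in IgG tumors (median 0.462 CPM) and 0.243 to 1.41 CPM in NR tumors (median 0.448 CPM), or as few as 8 counts. The R tumors held 1.97 and 2.51 CPM, above all others. Tigit rose by a log2 fold change of 1.86 ± 0.55 (SE) against NR, with an edgeR adjusted p of 0.0244. This call was lost without NR 10 (adjusted p = 0.0506), R 15 (0.281), R 16 (0.0673), or the 3 tumors of high mitochondrial share (0.0547), while the log2 fold change lay between 1.61 and 2.29 when each tumor was left out.

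Btla showed by far the widest gap between R and the other tumors among the 9 genes. BTLA is a receptor for Tnfrsf14 (HVEM) that B cells carry as well as T cells. The IgG tumors held 0.494 to 2.24 CPM (median 1.37 CPM) and the NR tumors 1.02 to 2.01 CPM (median 1.51 CPM). In R 15 it reached 149 CPM and in R 16 it reached 60.1 CPM. The log2 fold change against NR was 6.05 ± 0.37 (SE; edgeR adjusted p = 1.7e-08), or 66.3-fold. B cell genes moved with it. All 8 genes of the B cell list were called higher, 6 of which pass the filter without the R tumors, and their summed level was 1.94 to 9.2 CPM in IgG, 2.64 to 7.72 CPM in NR, 1410 CPM in R 15 and 363 CPM in R 16. Ms4a1 and Cd79a were at 0 counts in at least 1 IgG tumor each, and no gene of the list was at 0 in an NR or R tumor. The part of B cells in the level of Btla was not tested.

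**Figure D2:**
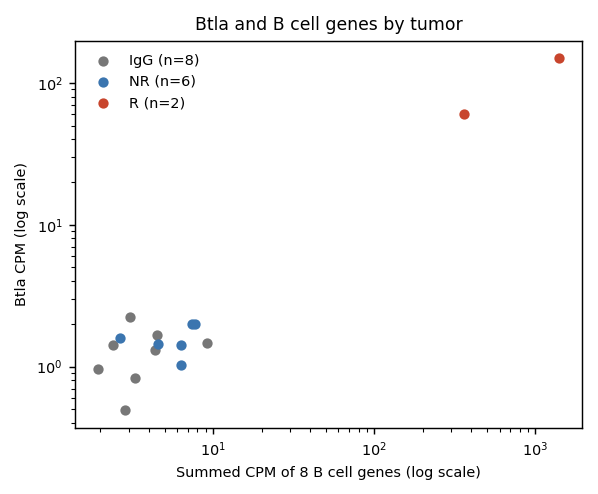
Btla level (CPM, log axis) against the summed CPM of 8 B cell genes (log axis), with 1 point per tumor. The 14 IgG and NR tumors lie at or below 9.2 CPM of B cell genes and 2.24 CPM of Btla, and R 15 lies above R 16 on both axes.

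Cd160, a receptor of cytotoxic T cells and NK cells that shares the ligand Tnfrsf14 with BTLA, rose in R tumors. It lay at 0.18 to 0.831 CPM in IgG tumors (median 0.419 CPM) and at 0.304 to 1.15 CPM in NR tumors (median 0.693 CPM). The R tumors held 2.81 and 4.47 CPM, with no overlap. The log2 fold change against NR was 2.37 ± 0.47 (SE; edgeR adjusted p = 0.00159). Of the 5 NK cell genes, 2 were called higher in R, and their summed level was 2.49 to 6.05 CPM in NR and 7.57 and 14.8 CPM in R tumors.

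Tox, the nuclear factor that sustains the exhausted state, was close to the limit of detection outside R tumors. It had 1 to 14 counts in the IgG tumors and 3 to 17 counts in the NR tumors, and 185 and 114 counts in R 15 and R 16. In CPM, NR tumors lay at 0.0911 to 0.43 and the R tumors at 5.47 and 3.21. The log2 fold change against NR was 4.16 ± 0.61 (SE; edgeR adjusted p = 1e-04). Like Btla, Tox was higher in R 15 than in R 16. Its relative Tox2 was at 0 to 0.135 CPM in NR tumors and 0.956 and 3.58 CPM in R tumors, and it too passed the filter only through the R tumors.

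Entpd1 encodes CD39, an ectoenzyme that degrades extracellular ATP toward adenosine and marks exhausted T cells, and which macrophages and endothelium carry too. The IgG tumors held 18.2 to 61.2 CPM (median 36.2 CPM), the NR tumors 17.4 to 58.7 CPM (median 46.8 CPM) and the R tumors 73.0 and 77.8 CPM. Both R tumors were above all others, but the log2 fold change of 0.88 ± 0.41 (SE) against NR did not pass (edgeR adjusted p = 0.154). The 3 lowest values, 17.4 to 18.5 CPM, were those of the 3 tumors of high mitochondrial share, below the 32.7 to 61.2 CPM of the other 11 IgG and NR tumors. The macrophage genes Adgre1 (16.3 to 32.1 CPM against 63.5 to 108 CPM) and Mrc1 (13 to 26.7 CPM against 40.4 to 94.5 CPM) divided the same tumors. The endothelial gene Kdr overlapped (5.25 to 10.2 CPM against 9.09 to 25.4 CPM). Other genes of the macrophage and endothelial lists were not compared in this way, and the part of either cell type was not tested. Without these 3 tumors the Entpd1 log2 fold change between R and NR was 0.47 (edgeR adjusted p = 0.114).

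Against IgG controls, R tumors had 7 of the 9 genes higher, where 14.3% of all genes were called higher and 0.641% lower. Without Tox, which the filter kept only for the R tumors, 6 of 8 were called with a median of 1.94. Pdcd1 and Lag3 joined the 5 genes called against NR, and the median of all 9 log2 fold change was 2.03, against -0.02 over all genes. Btla (6.32 ± 0.34 SE), Cd160 (2.99 ± 0.44 SE) and Ctla4 (2.26 ± 0.26 SE) had the largest log2 fold changes of these 8, and that of Tox was 4.59 ± 0.56 (SE). Entpd1 (1.0, edgeR adjusted p = 0.0793) and Havcr2 (0.19, edgeR adjusted p = 0.523) did not pass. Without R 15 the number called was 4, as Pdcd1, Lag3 and Tigit were lost, and without R 16 it was 5, as Pdcd1 and Lag3 were lost. Because the R tumors enter both comparisons, these are not separate evidence.

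Between NR and IgG tumors, none of the 9 genes was called, nor was any of the 18251 genes (0% in either direction), although 694 genes had an unadjusted p under 0.05 and DESeq2 called 4 genes, none of them among the 9. All 9 estimates were above 0, with a median log2 fold change of 0.42 against -0.01 over all genes. Ctla4 had the smallest unadjusted p of the 9, at 0.0011, with a log2 fold change of 0.81 ± 0.2 (SE) and an edgeR adjusted p of 0.763. The next largest log2 fold changes were those of Pdcd1 at 0.67 ± 0.4 (SE) and Cd160 at 0.62 ± 0.35 (SE). The T cell gene Cd3e itself differed by 0.52 ± 0.36 (SE) in this comparison. The gene of the PD-1 ligand, Cd274, named here after its values were seen, had 34.2 to 62.5 CPM in IgG and 61.0 to 107 CPM in NR tumors (log2 fold change 0.75 ± 0.19 SE; edgeR adjusted p = 0.763).

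When all 8 aPD-1 tumors were set against the 8 IgG tumors, with no regard to response, none of the 8 members tested passed, as none of 15775 genes did (0% in either direction). Tox did not pass the filter on low counts in this fit. An unadjusted p under 0.05 was found for 5 of the 8 genes and for 1800 genes in all. The estimates were 4.41 ± 1.14 (SE) for Btla and 1.34 ± 0.31 (SE) for Ctla4, both with an edgeR adjusted p of 0.223. For Ctla4, 7 of 8 aPD-1 tumors were above every IgG tumor, and for Btla 2 of 8 were. DESeq2 called 100 genes, 1 of the 9 among them, Ctla4 (log2 fold change 1.32; adjusted p = 0.0105).

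**Figure D3:**
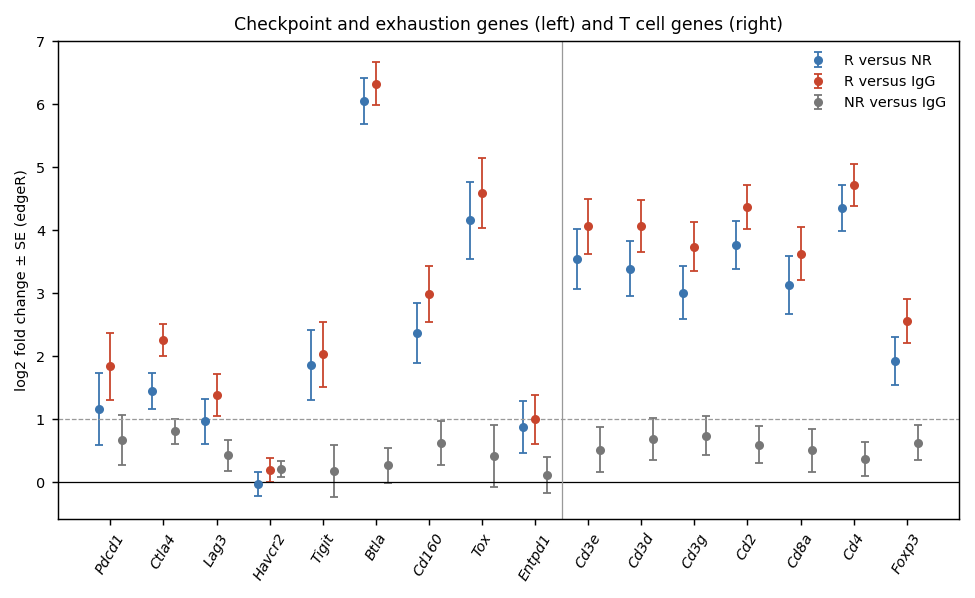
Log2 fold change with its standard error (edgeR) for the 9 genes, left of the vertical line, and for 7 T cell genes, right of it, in R against NR, R against IgG and NR against IgG. The dashed line marks a log2 fold change of 1. In R against NR, Pdcd1 (1.16), Ctla4 (1.45) and Lag3 (0.97) lie below Cd3e (3.54), and Btla (6.05) and Tox (4.16) above it.

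The genes of the T cell list, such as Cd3e, rose far more in R tumors than most of these receptors. Cd3e, a chain of the T cell receptor complex, lay at 0.253 to 1.63 CPM in IgG tumors (median 0.756 CPM), 0.677 to 2.1 CPM in NR tumors (median 0.957 CPM), and 14.1 and 14.3 CPM in R tumors. Its log2 fold change in R against NR was 3.54 ± 0.48 (SE; edgeR adjusted p = 4.56e-05), and all 11 genes of the T cell list were called higher, with a median of 3.61. Each gene was therefore also expressed as the log2 ratio of its CPM to that of Cd3e in the same tumor, and compared between groups by an exact permutation test. With 2 against 6 tumors the smallest two-sided p this test can give is 0.0357.

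Relative to Cd3e, 7 of the 9 genes were lower in both R tumors than in every NR tumor, Btla was higher, and Tox overlapped. Since Cd3e rose 11.6-fold, 89.0% of the 18250 other genes tested also lay below all NR tumors on this scale and 1.18% above. The 7 of 9 are thus close to the share among all genes, and the ratio does not set these receptors apart from genes in general. The median difference over all genes was -3.63. The other genes of the T cell list mostly stayed near Cd3e. Of these 10, 9 overlapped between R and NR tumors and 1, Cd8a, was below, with a median difference of 0.06. Genes of T cell states did not stay near it. The median was -2.02 for regulatory, -2.22 for effector and -1.85 for naive and recirculating T cell genes, against -2.17 for the 9 members. The ratio thus does not set the members apart from T cell genes of every kind. Cd3d differed by -0.19 (exact p = 0.643) and Cd2 by 0.17 (exact p = 0.643).

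There was 5.28 times as much Pdcd1 as Cd3e in the highest NR tumor and 1.31 times as much in the lowest, with a median of 3.19. The R tumors had ratios of 0.524 and 0.685, below all 14 others. The difference on the log2 scale was -2.17 (exact permutation p = 0.0357, adjusted over all genes 0.0404, a value that most genes share here), or 4.49-fold lower. Ctla4 fell from a median ratio of 3.23 (1.91 to 4.96) to 0.659 and 0.742, a log2 difference of -2.19. Lag3 fell from 2.35 (1.38 to 2.94) to 0.305 and 0.385, a difference of -2.66. Tigit differed by -1.57 and Cd160 by -1.25, the smallest falls of the 7, and Entpd1 by -2.62. Each of these, and Havcr2 at -3.73, had the smallest exact permutation p possible, 0.0357. The difference of Havcr2 is near the median of all genes, as its CPM did not move between R and NR.

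Btla was the exception among the receptors. Its ratio to Cd3e was 0.687 to 2.23 in NR tumors, and 10.6 in R 15 and 4.21 in R 16. The log2 difference was 2.26 (exact permutation p = 0.0357), or 4.79-fold higher. The B cell gene Cd79a differed by 4.34 on the same scale, and 8 of 8 B cell genes lay above all NR tumors. Tox differed by 0.61 (exact permutation p = 0.5), with R tumors inside the range of the NR tumors, whose values rest on 3 to 17 counts.

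**Figure D4:**
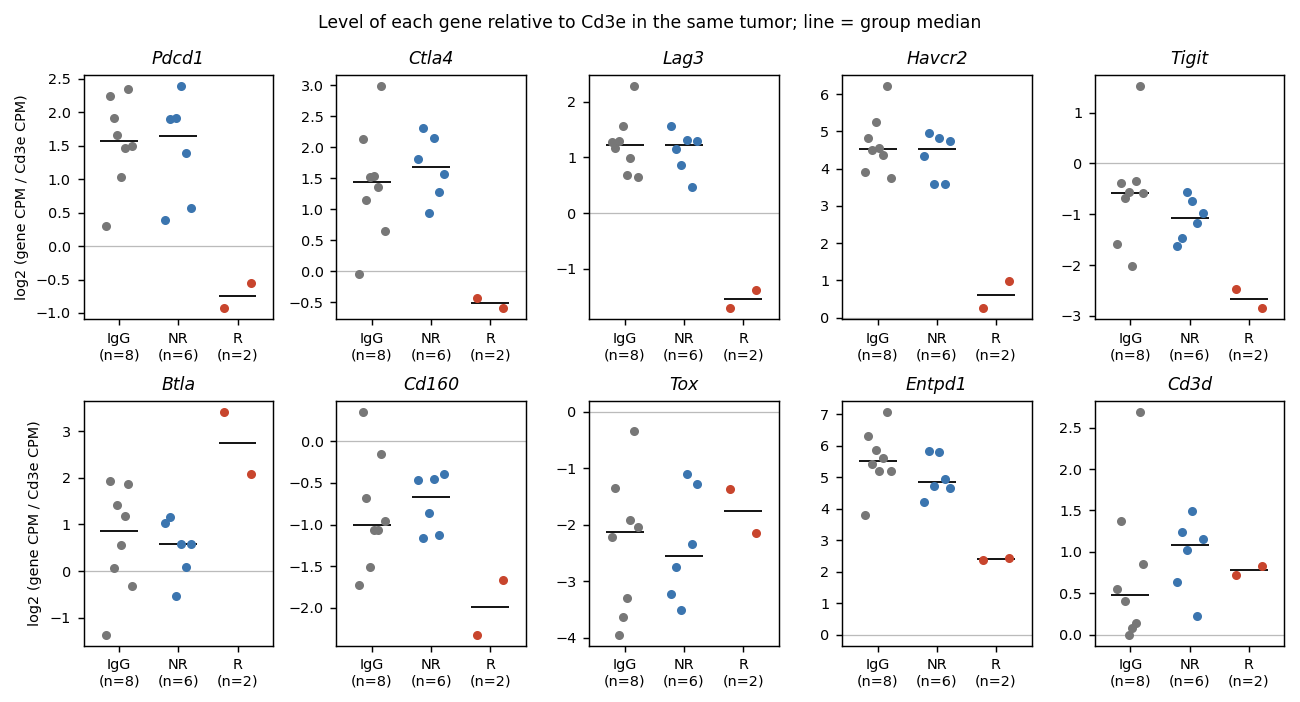
Log2 ratio of each gene's CPM to the CPM of Cd3e in the same tumor, in IgG, NR and R tumors, for the 9 genes and, as another T cell gene, Cd3d, with 1 point per tumor and a line at the group median. For 7 genes both R tumors lie below all NR tumors, Btla lies above them, and Tox and Cd3d overlap.

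Against IgG tumors the same 9 ratios gave 6 genes below all IgG tumors and 1, Btla, above, where 88.1% of all genes lay below and 0.614% above and the median difference over all genes was -4.2. The differences were -2.3 for Pdcd1, -1.93 for Ctla4, -2.78 for Lag3 and -2.08 for Tigit, each with the smallest exact permutation p that 2 against 8 tumors allow, 0.0222. Cd160 overlapped with IgG tumors (-1.14, exact permutation p = 0.0889). Btla was 2.08 higher (exact permutation p = 0.0667), which did not pass, and it overlapped with Cd3d as denominator (2.06). Ctla4 overlapped with Cd8a as denominator (-1.55). Between NR and IgG tumors no ratio had an exact permutation p under 0.05, a level that 1.03% of all genes reached. The differences ran from -0.53 for Entpd1 to 0.26 for Ctla4, against a median of -0.54 over all genes.

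Counts for other lists on the scale relative to Cd3e are read against the 89.0% of all genes below all NR tumors and the median of -3.63. Regulatory T cell genes were below all NR tumors in 5 of 5 cases (median difference -2.02) and effector T cell genes in 5 of 7 (median -2.22). Among naive and recirculating T cell genes, 5 of 7 were below and 1 above (median -1.85). Of the genes listed as costimulatory, 4 of 9 were below and 5 overlapped, with a median of -0.58. Cd28 (-0.03), Cd27 (0.06), Cd226 (-0.21), Cd96 (-0.58) and Cd40lg (1.38) had ratios to Cd3e that overlapped between the groups. Of these, Cd40lg passed the filter only through the R tumors. Tnfrsf9 (-3.42), Tnfrsf18 (-2.39), Tnfrsf4 (-2.27) and Icos (-0.94) were below. The 9 members had a median of -2.17, with 7 below.

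Among the 14 IgG and NR tumors, where Cd3e ranged from 0.253 to 2.1 CPM, 3 of the 9 genes followed Cd3e most closely. Lag3 had a Pearson r of 0.84 with Cd3e on the log2 CPM scale (permutation p = 0.00014) and a Spearman rho of 0.83 (permutation p = 0.00048). Cd160 had r = 0.75 (permutation p = 0.0022) and rho = 0.7 (permutation p = 0.0071). Pdcd1 had r = 0.65 (permutation p = 0.012) and rho = 0.5 (permutation p = 0.07). Adjusted over the 18250 genes, none of the 9 passed, with values of 0.134 for Lag3, 0.263 for Cd160 and 0.452 for Pdcd1, and none of all genes did (0%). Cd8a, at r = 0.89, had an adjusted p of 0.0608.

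Within the groups r was 0.79 in IgG and 0.84 in NR tumors for Lag3, 0.61 and 0.86 for Cd160, and 0.58 and 0.75 for Pdcd1. Leaving out IgG 7 and NR 11, the tumors farthest from the median of Cd3e, gave 0.77 for Lag3, 0.58 for Cd160 and 0.47 for Pdcd1. For the other genes r was 0.45 for Havcr2, 0.42 for Ctla4, 0.39 for Tigit, 0.32 for Tox, 0.29 for Entpd1 and 0.07 for Btla. Permutation p-values for these ran from 0.1 for Havcr2 to 0.8 for Btla. Tigit had r = 0.92 in the 6 NR tumors and 0 in the 8 IgG tumors, a contrast that was not tested. Cd3e itself rested on 9 to 73 counts in these tumors, which limits every ratio and correlation with it.

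**Figure D5:**
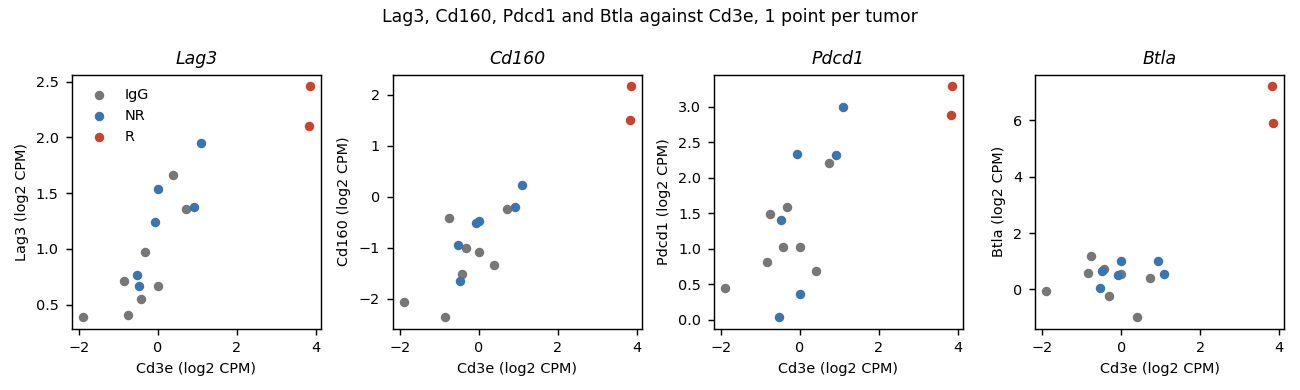
Log2 CPM of Lag3, Cd160, Pdcd1 and Btla against log2 CPM of Cd3e, with 1 point per tumor in the colours of the 3 groups. Among the 14 IgG and NR tumors r was 0.84, 0.75, 0.65 and 0.07 in this order, and the 2 R tumors, which were left out of r, lie far to the right.

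The genes whose levels followed each member most closely over the same 14 tumors were sought among 13612 genes by Spearman's rho. No p-value was computed for these. The highest of so many rhos over 14 tumors can be large by chance, so the genes named are a ranking only. For Lag3 these were Socs1 (0.96), Trafd1 (0.95) and H2-T23 (0.94), and for Ctla4 they were Ripk3 (0.93), Icos (0.93) and Tmem154 (0.92). Socs1 is a feedback inhibitor of cytokine signalling and Icos a costimulatory receptor of activated T cells. Selplg, Itgal and Sytl2 (0.92 each) came closest to Pdcd1. Itgal encodes the integrin chain of LFA-1 on leukocytes. Entpd1 was followed by Gnpda1 (0.94), F2r (0.94) and Gimap4 (0.93). Cd160 had Dapk1 (0.89), Tspyl3 (0.88) and Adgrg1 (0.87), and Tigit had Nr1h3 (0.88), Aspn (0.84) and Slc7a7 (0.82). The closest genes were looser for Havcr2 (Cndp2 and Gpr141, 0.83 each, and Slfn2, 0.81), Btla (Gja4 and Fst, 0.75 each, and Armcx4, 0.74) and Tox (Gm8995, 0.75, then Ifng and Sbsn, 0.74 each). Among the members themselves the highest rho was 0.84, between Pdcd1 and Entpd1. Both were low in NR 9 and NR 14, tumors of high mitochondrial share.

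The partners of these receptors moved unevenly between R and NR tumors. Of 13 ligands, 2 rose, against the 12.5% of all genes called higher. Ceacam1, a ligand of TIM-3, had a log2 fold change of 2.57 ± 0.26 (SE; edgeR adjusted p = 2.09e-06) and Pdcd1lg2, which encodes PD-L2, one of 2.19 ± 0.72 (SE; edgeR adjusted p = 0.0418). Cd80 (0.84) and Fgl1 (0.85), ligands of CTLA-4 and LAG-3, did not pass. The Tigit ligands Pvr (-0.08) and Nectin2 (-0.03) were near 0. Below 0 lay Lgals3 (-0.78 ± 0.29 SE; edgeR adjusted p = 0.0736), Nectin3 (-0.41) and Hmgb1 (-0.29), named after their values were seen, and none passed. The median of the list was 0.5. The summed ligand level was mostly that of Hmgb1 and Lgals3 (NR means 740 and 601 CPM), so it does not stand for the list as a whole. It was 1200 and 1470 CPM in R tumors and 1550 to 1770 CPM in NR tumors, so these did not overlap. The IgG tumors, at 1370 to 1850 CPM, overlapped with R. Fgl1 passed the filter only through the R tumors.

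Genes listed as costimulatory rose in 8 of 9 cases with a median log2 fold change of 3.02, where 12.5% of all genes were called higher. The list includes Cd40lg, which encodes a ligand, and Cd96 (3.02 ± 0.44 SE), which is also described as inhibitory. Cd40lg (4.94 ± 0.9 SE) passed the filter only through the R tumors, and of the 8 others 7 rose, with a median of 2.82. The largest of these were Cd27 (3.71 ± 0.36 SE), Cd28 (3.55 ± 0.37 SE) and Cd226 (3.24 ± 0.66 SE). Tnfrsf18 had 1.21 ± 0.26 (SE), and Tnfrsf9, which encodes 4-1BB, had 0.21 ± 0.42 (SE; edgeR adjusted p = 0.79) and did not pass. Between receptors that share ligands, Cd28 at 3.55 stood beside Ctla4 at 1.45, and Cd226 at 3.24 beside Tigit at 1.86. The difference within each pair was not tested. Of 8 other inhibitory receptors 1 rose, Cd5 (3.61 ± 0.41 SE), which the T cell list also holds. This count is no more than the share of 12.5% among all genes. Klrc1 (1.15), Cd101 (0.85) and Cd200r1 (0.78) did not pass, and Cd244a (-0.02) and Lair1 (-0.36) were at or below 0.

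Counts in the next 3 lists stand beside the 12.5% of all genes called higher, and were not tested against it. Of 13 transcription factors of exhaustion and T cell state, 8 rose, with a median of 1.23. Without Tox2 (5.43 ± 0.82 SE) 7 of 12 did, with a median of 1.19. The largest of these were Irf4 (4.47 ± 0.54 SE), which B cells use as well, Tbx21 (2.1 ± 0.45 SE) and Batf (1.86 ± 0.22 SE). Nr4a2 (-0.23) and Prdm1 (-0.25), both linked to the exhausted state, did not pass. Downstream of the receptors, 2 of 6 signalling genes rose. These were Sh2d1a (3.64 ± 0.57 SE), an adaptor of T and NK cells, and Ptpn6 (1.38 ± 0.18 SE), which encodes the phosphatase SHP-1. Sh2d1a passed the filter only through the R tumors, and without it 1 of 5 rose. Ptpn11, which encodes SHP-2, the phosphatase that PD-1 recruits, had 0.05 ± 0.24 (SE), and Inpp5d (0.94), Grb2 (0.45) and Bag6 (0.33) did not reach a log2 fold change of 1. In the adenosine pathway that CD39 feeds, the receptor gene Adora2a rose (2.64 ± 0.42 SE), 1 of 4 genes, while Nt5e (-0.01 ± 0.3 SE), which encodes CD73, the enzyme that acts after CD39, Adora2b (0.14) and Ada (0.41) did not pass. No gene of these lists was called lower, and none was called between NR and IgG tumors.

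Markers of other cell types moved with the R group as well. Besides the B cell list, 5 of 5 genes that mark high endothelial venules and the stroma of lymph nodes were called higher, 2 of which pass the filter without the R tumors, with summed levels of 0.835 to 4.25 CPM in NR, 393 CPM in R 15 and 111 CPM in R 16. Of these, Glycam1, Chst4, Ccl21a and Madcam1 were at 0 counts in at least 1 IgG and at least 1 NR tumor. Of all genes tested, 12.5% were called higher. In the remaining lists these were 6 of 7 naive and recirculating, 4 of 7 effector and 4 of 5 regulatory T cell genes. Without Gzmk, which passed the filter only through the R tumors, 3 of 6 effector genes were called. Also called higher were 5 of 6 dendritic cell genes, 2 of 5 endothelial genes, 3 of 4 epithelial genes and 0 of 4 proliferation genes. The summed effector list was 94.9 CPM in R 15 and 227 CPM in R 16, the reverse order of the B cell list. Pdcd1, Lag3, Havcr2, Cd160 and Entpd1 were higher in R 16, and Ctla4, Tigit, Btla and Tox in R 15, with 1 tumor on each side and no test possible. The part of these cell types in the levels of the 9 genes was not tested.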

How the data were processed

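Bulk RNA-seq of 16 MC38 tumors was analysed, 8 IgG, 6 NR and 2 R. Per the labels and the study's methods, libraries were strand-specific and poly(A)-selected, and paired reads of 150 bases were aligned by the authors with STAR 2.6 to GRCm38 with Ensembl 91. The deposited values are expected counts per gene, estimated by the authors with RSEM 1.3.0. RSEM divides reads shared by similar genes, and 7.84% of values were not whole. Genes overlapping the members held at most 8 counts in any tumor. The spatial data were not used here.

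Expected counts were rounded, and 92 spike-in entries (at most 185 counts in a tumor) were left out. Gene symbols and lengths came from GENCODE M21, also on GRCm38, which named 53274 of 53465 genes. edgeR 4.0.16 (R 4.3.3) was run with TMM scaling, its low-count filter over the 3 groups (18251 genes kept; all 9 members passed, 8 without R tumors), robust dispersions, quasi-likelihood tests on all 16 tumors and Benjamini-Hochberg adjustment over all genes. The aPD-1 against IgG fit used 2 treatments (15775 genes). A call needed an adjusted p under 0.05 and a log2 fold change over 1 either way. SE is the log2 fold change divided by the root of F. Ratios to Cd3e used log2 CPM with a prior count of 0.5. Tests of ratios were exact and two-sided, and correlations used 100000 permutations (Python 3.11.15, scipy 1.17.1). p-values measure the spread between tumors, 1 per mouse. No numbers pair the tumors, and no pair of tumors was a copy (in 120 pairs, chi-square divided by its degrees of freedom was 16.5 or more). The steps were tested on simulated data.

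The members and gene lists were chosen with earlier results of these data known. The lists give the 4 largest and 2 smallest log2 fold changes between R and NR, by absolute size, as named genes, and the closest 3 genes by rho per member among those averaging 1 CPM or more. Alternatives were DESeq2 1.42.0, its size factors, no filter, at least 10 counts in 8 tumors, only the tumors of the groups compared, leaving out each tumor, other denominators (Cd3d, Cd3g, their sum with Cd3e, Cd8a, Cd2), a prior count of 2, rank correlation and deviations from group means. Leaving out the 3 tumors of mitochondrial share above 5% was chosen after seeing the data.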

Additional observations from a re-analysis of the deposited data

Results flagged for a closer look

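Values far from the rest of their group were sought in 38 groups of 4 to 10 tumors, of which chance would flag about 1 in 20, and 2 were found. Ctla4 in NR 14 had a log2 CPM of 1.03, where the other 5 NR tumors lay between 1.79 and 2.19 (gap over range 0.656, critical value 0.625). NR 14 is also a tumor of high mitochondrial share. The log2 ratio of Tigit to Cd3e in IgG 7 was 1.53, where the other 7 IgG tumors lay between -2.02 and -0.34 (0.527 against 0.526). IgG 7 had the lowest Cd3e of all tumors, 0.253 CPM or 9 counts.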

How the results depend on the processing

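Of the results on single genes, 1224 alternative values kept their direction and side of the threshold, 11 gained a call, 15 lost one and 30 changed sign; the cause was not tested. No paired analysis was possible because the groups share no replicate numbers. Leaving out each tumor, members called numbered 3 to 6 in R against NR and 4 to 8 in R against IgG, lowest without R 15. DESeq2 called 1 member in aPD-1 against IgG. In NR against IgG, 1 ratio, that of Tigit, passed with Cd3d (-0.71, exact p = 0.0446), Cd3g (-0.76, exact p = 0.0266) or the sum (-0.68, exact p = 0.0406) as denominator. The ratio of Cd160 in R against NR overlapped with Cd3g (-0.66), the sum (-0.91) or Cd8a (-0.78), and in R against IgG those of Btla with Cd3d (2.06) and Ctla4 with Cd8a (-1.55) did so. Signs changed only in results that had not passed. Leaving out each tumor, log2 fold changes ran from -0.49 to 0.23 for Havcr2 in R against NR, -0.28 to 0.44 in R against IgG, and in NR against IgG from -0.25 to 0.4 for Tigit and -0.02 to 0.27 for Entpd1. Ratios to Cd3e in NR against IgG ran from -0.32 to 0.08 for Pdcd1, -0.21 to 0.03 for Lag3, -0.47 to 0.02 for Btla, -0.02 to 0.28 for Cd160 and -0.28 to 0.26 for Tox, and the Btla correlation from -0.1 to 0.31. The Cd160 ratio in NR against IgG was -0.09 with Cd3d, -0.15 with Cd3g, -0.06 with the sum and -0.17 without the 3 tumors of high mitochondrial share, where that of Pdcd1 was 0.17. The Btla correlation was -0.03 with Cd3d, 0.0 with the sum and -0.05 for deviations from group means. With 2 R tumors, low counts of Tox, Tigit and Cd3e limit every R comparison.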
